A study of Mus musculus with 12 samples.

Results

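The glutathione S-transferases described here are 10 genes chosen by name, Gsta3, Gsta4, Gstm1, Gstm2, Gstm3, Gstm4, Gstp1, Gstt1, Gstz1 and Gstk1, out of 24187 genes counted in 12 mouse livers. All 10 passed the filter on low counts that 22581 genes passed, and the lowest count of any of them in any liver was 253, for Gstm3. RNA was sequenced from whole livers of 3 control mice and 9 mice given acetaminophen (APAP, paracetamol). Of the latter, 5 were then given PBS as the vehicle. The other 4 were given hAAM, human alternatively activated macrophages grown from donor monocytes. The study's methods describe a 12 h fast before APAP or saline, and whether these controls received saline was not settled by the sources. The mice were C57BL/6J in one passage of the study's methods and C57BL6/JOlaHsd in another, aged 10 to 12 weeks, and the labels give an APAP dose of 350 mg/kg. A severe model with a larger dose also belongs to the study, and which of the models these livers came from was not settled by the sources used here. The cells or PBS were injected 16 h after APAP. Collection at 32 h and at 36 h after APAP is described in different places for mice of the study, and the time at which these livers were taken was not settled either. The groups are called control, vehicle and hAAM below, and livers carry the replicate numbers of their labels.

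Glutathione S-transferases join the tripeptide glutathione to electrophilic compounds, which makes these less reactive and marks them for export and for breakdown to mercapturates. In the liver they are abundant cytosolic enzymes of hepatocytes, sorted by sequence into the alpha, mu, pi, theta and zeta classes, while the kappa class sits in mitochondria and peroxisomes. They are best known in this tissue for their part in the handling of APAP, whose reactive metabolite NAPQI is conjugated with glutathione until the glutathione store of the hepatocyte runs low. Many genes of the family are targets of the stress-responsive transcription factor Nrf2, and several are transcribed more strongly near the central vein, where APAP injury also lies.

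Total counts per liver ran from 47391650 to 74056505. Scaling factors (TMM, trimmed mean of M values) were 0.832 to 0.859 in control livers, 1.02 to 1.13 in vehicle livers and 0.933 to 1.14 in hAAM livers. Values are given as CPM, counts per 1000000 of the scaled library, and a difference is a log2 fold change with its standard error from an edgeR quasi-likelihood fit over all 12 livers. A gene was called at a false discovery rate (FDR, Benjamini-Hochberg over all 22581 genes) under 0.05. Vehicle replicate 3 and hAAM replicate 4 were nearly the same library. The spread between them was 1.19 times what counting alone gives. For the 35 other pairs of livers given APAP that ratio was 2.36 to 4.97, and both libraries were kept in the groups of their labels. RNA of the Y-linked gene Ddx3y was present in all 12 livers, at 53.3 to 70.6 counts per 1000000 of the library without TMM scaling. The summed level of 10 hepatocyte markers was 100300 to 131300 CPM across the 12 livers.

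The genes lie in GRCm38 as follows, by the GENCODE vM21 annotation, and all are protein coding. Gstm1, Gstm2, Gstm3 and Gstm4, of the mu class, belong to a cluster on chromosome 3 and are all on its minus strand. In order of position they are Gstm3 at chr3:107963696-107969283, Gstm2 at chr3:107981702-107986453, Gstm1 at chr3:108012255-108017973 and Gstm4 at chr3:108040408-108044894. The alpha-class genes are apart, Gsta3 at chr1:21240589-21265661 and Gsta4 at chr9:78182774-78209349, both on the plus strand. Gstp1 is at chr19:4035407-4037985 (-), Gstt1 at chr10:75783813-75798584 (-), Gstz1 at chr12:87147165-87164723 (+) and Gstk1 at chr6:42245935-42250447 (+). Of the 50-base words in the transcripts of Gstp1, 33.7% also occur in another gene, mainly Gstp2. That share was 28.8% for Gstm3, 18.9% for Gstm1 and 5.65% for Gstm2, and under 1% for the other 6 genes. Counts of Gstp1, Gstm3 and Gstm1 are therefore less certain than those of the others. Exons of Gstz1 overlap exons of Pomt2 and Gm6566 on the opposite strand, and an intron of Gsta3 holds the antisense gene Gm28836. The strand setting of the counting was not given in the sources used here.

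Promoters of 9 of the 10 genes, in 12 windows of 300 bases, were matched in RefSeq (GRCm38.p6), each from 250 bases before to 50 bases after a start site. The sequence ahead of the start is printed for the 4 genes that were called lower in vehicle livers, since the results turn on them. Each run is 5′ to 3′ on the gene's own strand and leaves out bases that lie in an exon of the annotation. The run of Gstt1 lies ahead of the start that the RefSeq promoter uses but inside the gene's annotated span, since a longer transcript begins upstream. Capitals mark the core of the antioxidant response element, TGACNNNGC, the element bound by Nrf2.
Gsta3, chr1:21240335-21240584 (+): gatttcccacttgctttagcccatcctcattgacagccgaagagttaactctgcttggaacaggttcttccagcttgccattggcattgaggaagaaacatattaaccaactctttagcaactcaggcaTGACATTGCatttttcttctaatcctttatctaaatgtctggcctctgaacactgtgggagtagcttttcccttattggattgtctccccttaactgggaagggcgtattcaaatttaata
Gstm2, chr3:107986454-107986670 (-): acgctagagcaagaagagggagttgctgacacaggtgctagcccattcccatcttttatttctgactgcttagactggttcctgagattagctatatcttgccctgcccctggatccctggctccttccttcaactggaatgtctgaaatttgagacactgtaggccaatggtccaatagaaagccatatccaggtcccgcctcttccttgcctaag
Gstt1, chr10:75797732-75797981 (-): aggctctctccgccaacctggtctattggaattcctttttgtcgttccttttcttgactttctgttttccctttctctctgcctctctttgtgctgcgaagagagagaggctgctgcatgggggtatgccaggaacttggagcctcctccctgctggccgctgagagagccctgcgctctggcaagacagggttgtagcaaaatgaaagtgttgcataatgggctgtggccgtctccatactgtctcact
Gstk1, chr6:42245685-42245934 (+): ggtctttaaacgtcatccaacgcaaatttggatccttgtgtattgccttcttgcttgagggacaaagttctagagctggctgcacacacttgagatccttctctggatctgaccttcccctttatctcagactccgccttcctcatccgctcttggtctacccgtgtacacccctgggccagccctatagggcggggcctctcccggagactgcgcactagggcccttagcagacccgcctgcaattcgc
Of the 9 genes, 1 held that core on either strand: Gsta3, as TGACATTGC at bases -121 to -113 from its start. The core occurs in 12.4% of the 32851 RefSeq promoters of the same length. A stricter form of it, TGACTCAGC, which is one of the sequences that TGACNNNGC covers, was in 0 of the 9 genes and in 0.454% of all promoters. The TCF core CTTTGAT was likewise in 0 of the 9 genes and in 3.73% of all promoters. The related sequence TGAGTCAGC, searched for after the sequences had been seen, stood at bases -74 to -66 of Gstp1 alone among the 9, and was in 0.414% of all promoters. These are matches of letters in a short window. GC content over the 300 bases was 41.0% for Gsta3, 50% for Gstm2, 53.0% for Gstt1 and 55.3% for Gstk1, with a median of 52.7% over all promoters.

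The comparison of vehicle with control livers asks how the family's RNA stood after APAP injury without cells. Of the 10 genes, 4 were lower and 0 were higher: Gstm2, Gsta3, Gstk1 and Gstt1. Among all genes tested, 14.8% were called lower and 15.0% higher. The median log2 fold change of the 10 genes was -0.68, beside 0.01 over all genes. The estimate was negative for all 10 genes, but it was positive for Gstm4 with libraries scaled by their size alone (0.25) and without vehicle replicate 4 (0.02). That scaling moved the median of all genes to 0.36 and the median of the 10 to -0.34. In 5 of the 10 genes every vehicle liver lay below every control liver, which held for 17.3% of all genes. In 0 of the 10 were they all above, against 17.5% of all genes. Without control replicate 1, the highest control liver for all 10 genes, 2 were called lower, Gstm2 and Gstk1, beside 2429 of all 23090 genes tested. In that fit the estimates of Gsta4, Gstm1 and Gstm4 became positive and the median of the 10 was -0.43. DESeq2 called 6 lower, adding Gstm3 and Gstp1, beside 3817 of all 22581 genes.

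**Figure D1:**
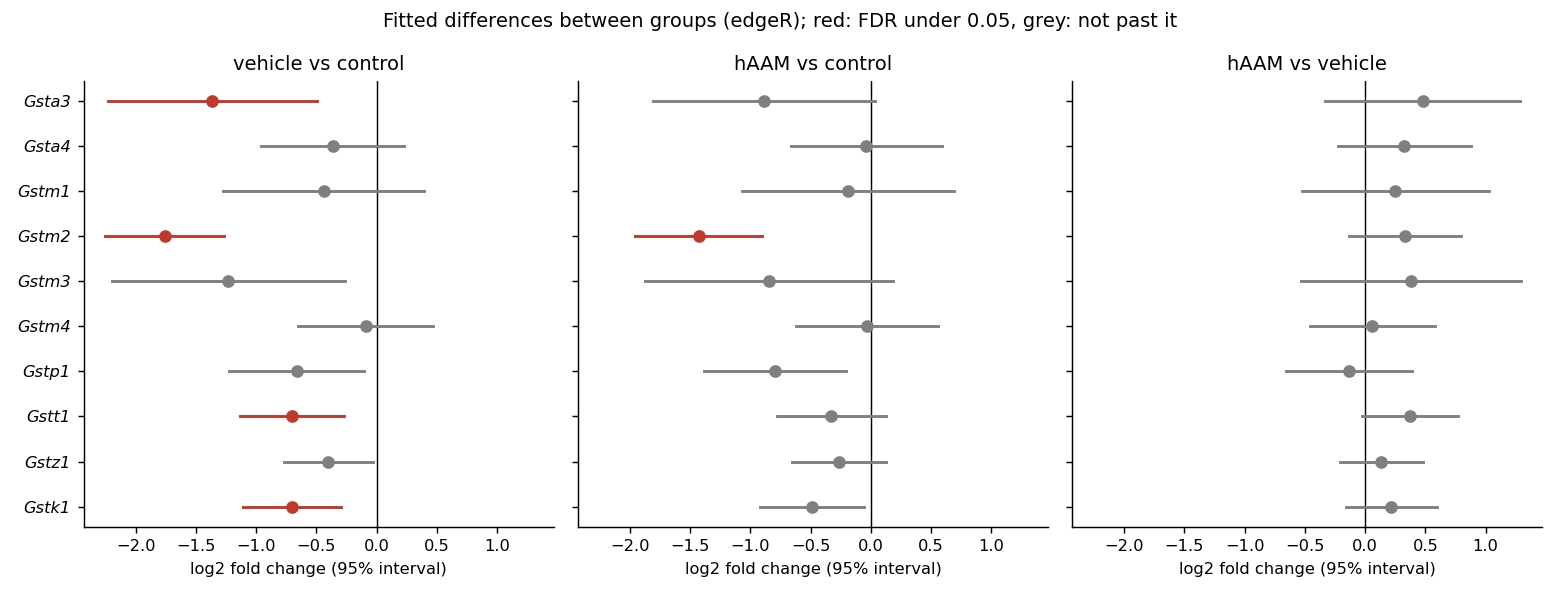
Log2 fold change (horizontal axis) of the 10 genes in each comparison, as points with 95% intervals from the edgeR fit over 12 livers. Red marks FDR under 0.05 and grey the rest. In vehicle against control all points lie left of 0 and 4 are red, in hAAM against control 1 is red, and in hAAM against vehicle none is.

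The comparison of hAAM with control livers uses the same 3 control livers, so it is not independent of the first. Gstm2 was called lower and the other 9 genes were not called in either direction, where 9.96% of all genes were lower and 10.7% higher. The median log2 fold change was -0.41, beside 0.02 over all genes. All 10 estimates were negative with TMM, and 6 of the 10 with library size alone, where the median of all genes moved to 0.32 and that of the 10 to -0.13. Without control replicate 1 or without hAAM replicate 2, 7 of the 10 were negative, and Gsta4, Gstm1 and Gstm4 were positive. Without hAAM replicate 3, 9 were negative and Gstm4 was at 0.011. In 2 of the 10 genes, Gstm2 and Gsta3, the hAAM livers lay below the control livers without overlap, which held for 14.2% of all genes. In 0 of the 10 were they all above, against 14.3%. DESeq2 called 2 lower, Gstm2 and Gstp1, beside 2747 of all 22581 genes. Without control replicate 2, vehicle replicate 5 or hAAM replicate 1, edgeR called Gstp1 as well. Without hAAM replicate 3 it called Gstk1 as well, which made 2 in each of these fits. They called 1396 to 2551 of all genes lower.

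Gsta3 encodes the main alpha-class enzyme of mouse liver, known for its activity on the epoxide of aflatoxin. Its level in control replicates 1 to 3 was 1131, 785 and 726 CPM. In vehicle replicates 1 to 5 it was 415, 317, 583, 153 and 243 CPM, and in hAAM replicates 1 to 4 342, 255, 708 and 599 CPM. Every APAP liver was below every control liver, and vehicle replicate 4 was the lowest of the 12. Gsta3 was lower in vehicle than in control livers by a log2 fold change of -1.36 ± 0.40 (SE, 95% interval -2.23 to -0.50, FDR = 0.0231). In hAAM against control livers the difference was -0.89 ± 0.42 (SE, 95% interval -1.81 to 0.03, FDR = 0.156), which missed the threshold. The call in vehicle livers was lost without control replicate 1 (log2 fold change -1.14, FDR = 0.0914) and without vehicle replicate 5 (-1.26, FDR = 0.0503).

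Gsta4 encodes the alpha-class enzyme that conjugates 4-hydroxynonenal, an aldehyde formed when lipids are oxidised. It stood at 28.9, 17 and 11.4 CPM in the control livers, at 16.7, 16.3, 18.4, 14.4 and 8.45 CPM in the vehicle livers and at 19.7, 16.02, 20.2 and 18.5 CPM in the hAAM livers. The groups overlapped, and the 3 control livers spanned both the highest level of the 12 and one of the 2 lowest. The log2 fold change was -0.36 ± 0.27 (SE, 95% interval -0.96 to 0.23, FDR = 0.337) in vehicle livers and -0.04 ± 0.29 (SE, 95% interval -0.66 to 0.59, FDR = 0.939) in hAAM livers.

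Gstm2 was the gene of the 10 with the largest fall, and the only one called in both comparisons with control. It encodes a mu-class transferase whose human counterpart acts on quinones derived from catecholamines. Control replicates 1 to 3 held 48.9, 27.1 and 38.03 CPM, vehicle replicates 1 to 5 13.8, 13.2, 12.3, 8.71 and 8.17 CPM and hAAM replicates 1 to 4 15.1, 10.96, 18.5 and 12 CPM. The lowest control liver was thus above the highest of the 9 APAP livers. Vehicle livers were lower than control livers by a log2 fold change of -1.76 ± 0.23 (SE, 95% interval -2.25 to -1.26, FDR = 0.000375), a level 3.39 times lower. For hAAM livers the log2 fold change was -1.43 ± 0.24 (SE, 95% interval -1.96 to -0.90, FDR = 0.00309), a level 2.69 times lower. Both calls were kept under each of the 22 alternative settings run, with log2 fold changes of -1.96 to -1.42 in vehicle livers and -1.62 to -1.14 in hAAM livers.

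Gstm1, the most abundant mu-class gene here, encodes a broad detoxifying transferase. In control livers it was at 1047, 374 and 381 CPM, so that replicate 1 alone was above all 9 APAP livers. The vehicle livers held 517, 588, 545, 257 and 306 CPM and the hAAM livers 578, 307, 665 and 558 CPM, ranges that enclose the other two control livers. Its log2 fold change was -0.44 ± 0.38 (SE, 95% interval -1.27 to 0.39, FDR = 0.412) in vehicle livers, and 0.23 without control replicate 1. In hAAM livers it was -0.19 ± 0.40 (SE, 95% interval -1.07 to 0.69, FDR = 0.775), and 0.48 without control replicate 1 and 0.001 without hAAM replicate 2.

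Gstm3, the neighbour of Gstm2 among these genes in the cluster, was measured at 33.6, 16.9 and 13.1 CPM in control livers. Vehicle livers held 10.96, 12.7, 12.3, 4.20 and 5.10 CPM, all below the control livers, and hAAM livers 12.9, 4.69, 16.1 and 13.4 CPM, which overlap them. The log2 fold change was -1.23 ± 0.45 (SE, 95% interval -2.20 to -0.26, FDR = 0.0554) in vehicle livers and -0.85 ± 0.47 (SE, 95% interval -1.88 to 0.18, FDR = 0.222) in hAAM livers. Neither passed the threshold, although DESeq2 called the first (FDR = 0.0245), as did edgeR without vehicle replicate 3 (-1.37, FDR = 0.0494) or without hAAM replicate 2 (-1.23, FDR = 0.0332).

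Gstm4, the farthest of the 4 mu-class genes from Gstm3, had 33.1, 13.2 and 20.1 CPM in control, 23.1, 21.7, 26, 14.2 and 19.01 CPM in vehicle and 24.9, 17.4, 19.7 and 24.8 CPM in hAAM livers. The highest and the lowest of these 12 values were both control livers. Its log2 fold changes, -0.09 ± 0.26 (SE, 95% interval -0.66 to 0.47, FDR = 0.818) in vehicle and -0.03 ± 0.27 (SE, 95% interval -0.62 to 0.56, FDR = 0.946) in hAAM livers, were the smallest among the 10 genes, and both turned positive with library size alone.

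Gstp1 encodes the pi-class enzyme, which is able to conjugate NAPQI and also binds signalling kinases. Per kilobase of exon its RNA was the most abundant of the 10 in every liver. Control livers held 2032, 990.1 and 1344 CPM, vehicle livers 1194, 1005, 832, 940 and 620.1 CPM and hAAM livers 1147, 651, 740 and 813 CPM. The groups overlapped through control replicate 2, which was below 2 of the 5 vehicle livers and 1 of the 4 hAAM livers. The log2 fold change was -0.67 ± 0.26 (SE, 95% interval -1.23 to -0.10, FDR = 0.0699) in vehicle livers and -0.80 ± 0.27 (SE, 95% interval -1.39 to -0.21, FDR = 0.0562) in hAAM livers, neither past the threshold. Without control replicate 2 both passed it, at -0.88 (FDR = 0.0344) and -1.01 (FDR = 0.033). Its near copy Gstp2, with 54.3% of its words shared, stood at 1889, 955 and 1328 CPM in control livers.

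Gstt1, the theta-class enzyme that acts on small halogenated compounds, had 112, 79.7 and 74.3 CPM in the control livers. Vehicle livers were at 53.5, 51.5, 76.7, 46.5 and 44.4 CPM and hAAM livers at 61.5, 56.98, 86.1 and 78.2 CPM. Vehicle replicate 3 was above control replicate 3, and the other 4 vehicle livers were below all controls. The fall in vehicle livers had a log2 fold change of -0.70 ± 0.20 (SE, 95% interval -1.13 to -0.28, FDR = 0.0191). In hAAM livers, 2 of which lay within the control range, it was -0.33 ± 0.21 (SE, 95% interval -0.78 to 0.12, FDR = 0.285) and was not called. The call in vehicle livers was lost without control replicate 1 (-0.50, FDR = 0.107) and with library size alone (-0.37, FDR = 0.0922).

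Gstz1, which as maleylacetoacetate isomerase takes part in the breakdown of tyrosine, was steady among controls at 391.5, 346 and 382 CPM. The vehicle livers, at 291, 309, 345, 227 and 243 CPM, were all below the control livers by a narrow margin. Those given hAAM were at 271, 239, 394 and 339 CPM, with replicate 3 above every control. The log2 fold change was -0.40 ± 0.17 (SE, 95% interval -0.77 to -0.03, FDR = 0.094) in vehicle and -0.27 ± 0.18 (SE, 95% interval -0.66 to 0.12, FDR = 0.314) in hAAM livers, neither past the threshold.

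Gstk1, the kappa-class enzyme of mitochondria and peroxisomes, had the tightest control values of the 10 genes, 43.95, 42.5 and 43.5 CPM. All vehicle livers were below them, at 27.7, 29.2, 31.7, 23.6 and 20.6 CPM. The hAAM livers, at 26.6, 21.7, 42.9 and 32.2 CPM, ranged from about the lowest vehicle value to within the control range. Gstk1 was lower in vehicle livers by a log2 fold change of -0.71 ± 0.19 (SE, 95% interval -1.11 to -0.30, FDR = 0.0147), a call kept in each of the 12 fits that left out 1 liver. With library size alone it was -0.37 (FDR = 0.0569). The difference in hAAM livers was -0.49 ± 0.20 (SE, 95% interval -0.92 to -0.06, FDR = 0.0987), and -0.69 (FDR = 0.013) without hAAM replicate 3.

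**Figure D2:**
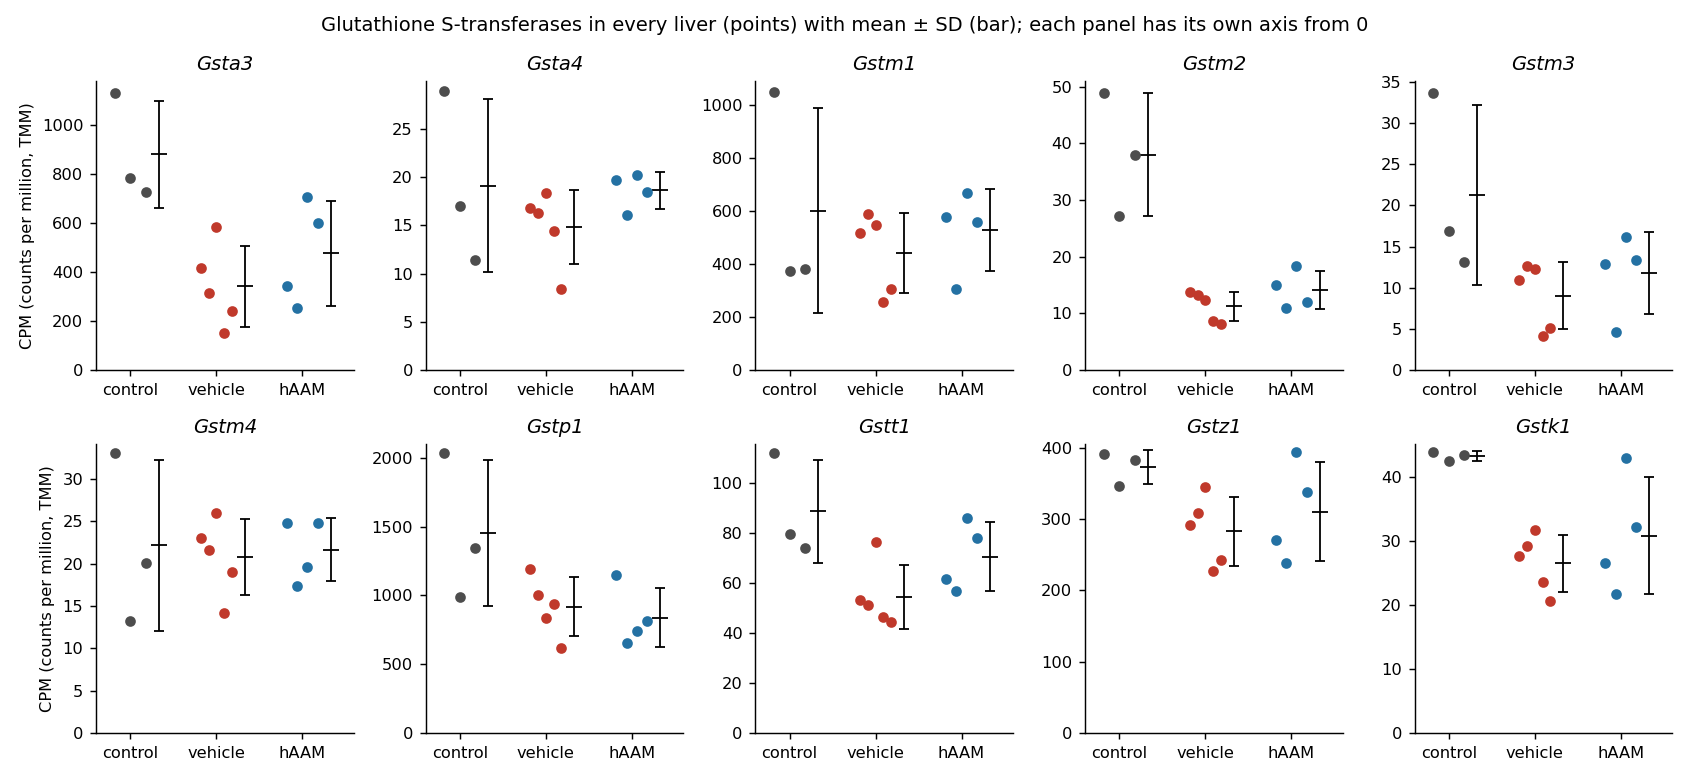
CPM (TMM-scaled, linear axis from 0, its own in each panel) of the 10 genes in each liver as points, in replicate order, with the mean and SD of each group as a bar: control (n = 3), vehicle (n = 5) and hAAM (n = 4). Gstm2 shows the widest separation, with controls at 27.1 to 48.9 and APAP livers at 8.17 to 18.5 CPM, while control replicate 1 is the highest control in every panel.

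The same livers were often the highest or lowest of their group for several genes. Control replicate 1 was the highest control for all 10 genes, and the lowest control was replicate 2 for 6 genes and replicate 3 for 4. Among vehicle livers the lowest was replicate 4 for 5 genes and replicate 5 for the other 5, and the highest was replicate 3 for 6. Among hAAM livers replicate 2 was the lowest for all 10 genes and replicate 3 the highest for 8. Members measured in 1 liver share its library, so these are not independent observations. In whole liver, fewer cells of a type and less RNA per cell cannot be told apart.

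Per kilobase of exon, the order of mean levels in control livers was Gstp1 (940 ± 342 CPM per kilobase, SD, n = 3), Gstm1 (408 ± 262), Gsta3 (203 ± 50.3), Gstz1 (73.4 ± 4.68), Gstt1 (58.1 ± 13.5) and Gstk1 (29.5 ± 0.510). Gstm2 (22.7 ± 6.50), Gstm3 (16.2 ± 8.33), Gsta4 (15.1 ± 7.06) and Gstm4 (12.98 ± 5.92) followed, and these 4 overlapped their neighbours in the order, as did Gstp1 and Gstm1, Gstm1 and Gsta3, Gstz1 and Gstt1, and Gstk1 and Gstm2. Gsta3 did not overlap Gstz1, nor Gstt1 Gstk1. The first 6 places were the same in vehicle and hAAM livers. Gstm2 was in place 7 in control livers and in place 10 in both APAP groups, at 6.69 ± 1.56 (n = 5) and 8.42 ± 2.01 (n = 4) CPM per kilobase, where its range overlapped that of Gstm3.

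Summed over the 10 genes, the level per kilobase was 1779 ± 687 in control (SD, n = 3), 1119 ± 249.4 in vehicle (n = 5) and 1182 ± 248.5 in hAAM livers (n = 4). The control livers ranged from 1274 to 2562, and the lower end of that range lay within those of the vehicle livers (781 to 1372) and the hAAM livers (820 to 1373). Gstp1 made up 53.1% ± 4.15 of the sum in control, 53.4% ± 7.80 in vehicle and 46.2% ± 7.97 in hAAM livers. The share of Gstm2 was 1.30% ± 0.188 in control livers and 0.598% ± 0.0264 in vehicle livers, and its ranges did not overlap. In hAAM livers the share of Gstm2 was 0.719% ± 0.121, also below the control range of 1.14% to 1.51%. For Gstm4 the share was 0.717% ± 0.0946 in control, 1.11% ± 0.221 in vehicle and 1.09% ± 0.158 in hAAM livers. In this share each APAP liver was above each control liver. The mean level of Gstm4 itself was 12.98, 12.2 and 12.7 CPM per kilobase in the same order, while the mean sum was lower in both APAP groups. Gsta3 made up 11.8% ± 2.10 of the sum in control, 6.91% ± 2.63 in vehicle and 9.16% ± 3.21 in hAAM livers, with overlap.

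**Figure D3:**
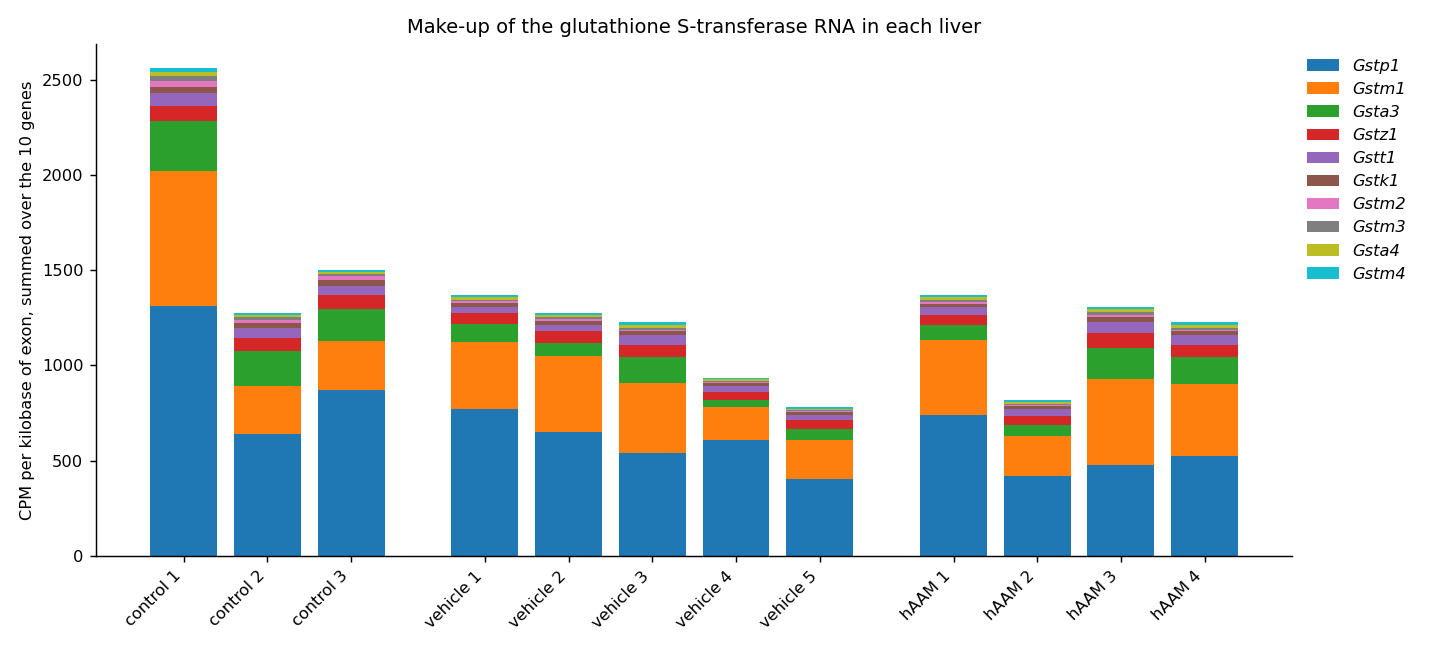
Stacked bars of the level of the 10 genes in each liver, in CPM per kilobase of exon summed over the genes (linear axis from 0), with 1 bar for each of the 3 control, 5 vehicle and 4 hAAM livers. Gstp1, Gstm1 and Gsta3 fill most of each bar, and control replicate 1 stands highest at 2562, above the other livers at 781 to 1501.

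The comparison of hAAM with vehicle livers addresses the effect of the cells on the injured liver. None of the 10 genes was called by edgeR, 0 of the 10 had an unadjusted p under 0.05, and DESeq2 called 0 of them. Across all genes edgeR called 0 (0%), with 1133 at an unadjusted p under 0.05, and DESeq2 called 1. In 0 of the 10 genes were the hAAM livers all above the vehicle livers, beside 0.709% of all genes, and in 0 were they all below, beside 0.691%. The estimate was positive for 9 of the 10 genes and negative for Gstp1, with a median of 0.29 beside 0.00 over all genes. Leaving out 1 of 4 APAP livers in turn (vehicle 4, hAAM 1, hAAM 3 or hAAM 4) made the estimate of a further gene 0 or negative, Gstm4 or Gstz1. The median of the 10 was 0.15 without hAAM replicate 3, 0.16 without vehicle replicate 5 and 0.19 without vehicle replicate 4, and it was 0.415 without hAAM replicate 2.

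For Gsta3 the difference between hAAM and vehicle livers had a 95% interval of -0.33 to 1.29 around 0.48 on the log2 scale. The interval was -0.53 to 1.29 for Gstm3, -0.02 to 0.77 for Gstt1 and -0.14 to 0.80 for Gstm2. It was -0.22 to 0.88 for Gsta4, -0.52 to 1.02 for Gstm1 and -0.16 to 0.60 for Gstk1. The remaining intervals were -0.21 to 0.48 for Gstz1, -0.46 to 0.58 for Gstm4 and -0.66 to 0.39 for Gstp1. Each interval contains 0. The upper bound was above 1 log2 unit for Gsta3, Gstm1 and Gstm3, while for Gstz1 both bounds were within 0.5 of 0. In each of the 10 genes the 2 near-identical libraries differed by a ratio of 0.952 to 1.09, and leaving both out called no gene.

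Of 21 other genes of the family that were listed, 18 were counted and 17 passed the filter, Mgst2 being the one that did not. In vehicle livers 8 of the 17 rose and 3 fell, beside 15.0% and 14.8% of all genes. In hAAM livers 6 rose and 3 fell, beside 10.7% and 9.96%. Of these 3, Mgst1, Gstm6 and Gstp2, the last 2 were close to the threshold (FDR = 0.048 and 0.0496). The call of Gstm6 was lost in 7 of the 12 fits that left out 1 liver, and that of Mgst1 was kept in 8. Between hAAM and vehicle livers 0 were called by edgeR and 0 by DESeq2, and 0 of the 17 had an unadjusted p under 0.05. The largest changes were in alpha-class genes on chromosome 9, the chromosome that also holds Gsta4.

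Gsta1, an alpha-class gene known for its induction by electrophiles, was at 9.68, 2.67 and 1.15 CPM in control livers. It was at 129, 98.4, 67.3, 123 and 109.6 CPM in vehicle livers and 145, 65.5, 40.6 and 64.8 CPM in hAAM livers. Every APAP liver was above every control liver, and control replicate 1 was again the highest control. The log2 fold change was 4.55 ± 0.67 (SE, 95% interval 3.10 to 6.01, FDR = 0.000797) in vehicle and 4.14 ± 0.66 (SE, 95% interval 2.69 to 5.58, FDR = 0.00229) in hAAM livers. With 1 liver left out in turn, the value for Gsta1 ran from 4.10 to 5.77 in vehicle and from 3.67 to 5.36 in hAAM livers. It was called in each of those 12 fits. Of its 50-base words 90.5% are shared with other genes, chiefly its near copy Gm3776 (92.5% shared), so the counts of this pair may be split between them. Gm3776 changed by 4.93 ± 0.70 (SE, 95% interval 3.41 to 6.45, FDR = 0.000663) and Gm10639, with 49.4% of its words shared, by 3.10 ± 0.51 (SE, 95% interval 1.98 to 4.21, FDR = 0.00147) in vehicle livers. With 1 liver left out these ran from 4.47 to 6.30 for Gm3776 and from 2.71 to 3.98 for Gm10639.

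Hpgds, the haematopoietic prostaglandin D synthase of the sigma class, rose in vehicle livers by a log2 fold change of 1.05 ± 0.23 (SE, 95% interval 0.55 to 1.55, FDR = 0.00593), from 1.77, 2.82 and 2.09 CPM in control to 6.95, 4.20, 3.85, 4.04 and 4.11 CPM in vehicle livers. Mgst3, a membrane-bound enzyme with leukotriene C4 synthase activity, rose by 0.97 ± 0.19 (SE, 95% interval 0.56 to 1.37, FDR = 0.00303). The theta-class gene Gstt2 rose by 0.88 ± 0.27 (SE, 95% interval 0.29 to 1.46, FDR = 0.0287), a call lost in 5 of the 12 fits that left out 1 liver. Mgst1, the abundant microsomal transferase, fell with a log2 fold change of -0.94 ± 0.21 (SE, 95% interval -1.41 to -0.48, FDR = 0.00704), from 1533, 1151 and 1557 CPM in control to 760.2, 594, 887, 568 and 861 CPM in vehicle livers. Gstm6, of the mu cluster on chromosome 3, changed by -1.31 ± 0.29 (SE, 95% interval -1.95 to -0.68, FDR = 0.00648) and was lower in all APAP livers. The remaining 3 called genes were Gstm5 (0.49, FDR = 0.0304) and Gstcd (0.37, FDR = 0.0492), which rose, and Gstm7 (-0.59, FDR = 0.0268), which fell. Gstcd was close to the threshold. Of the mu-class genes counted in the 2 sets, Gstm2, Gstm6 and Gstm7 were thus called lower and Gstm5 higher.

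**Figure D4:**
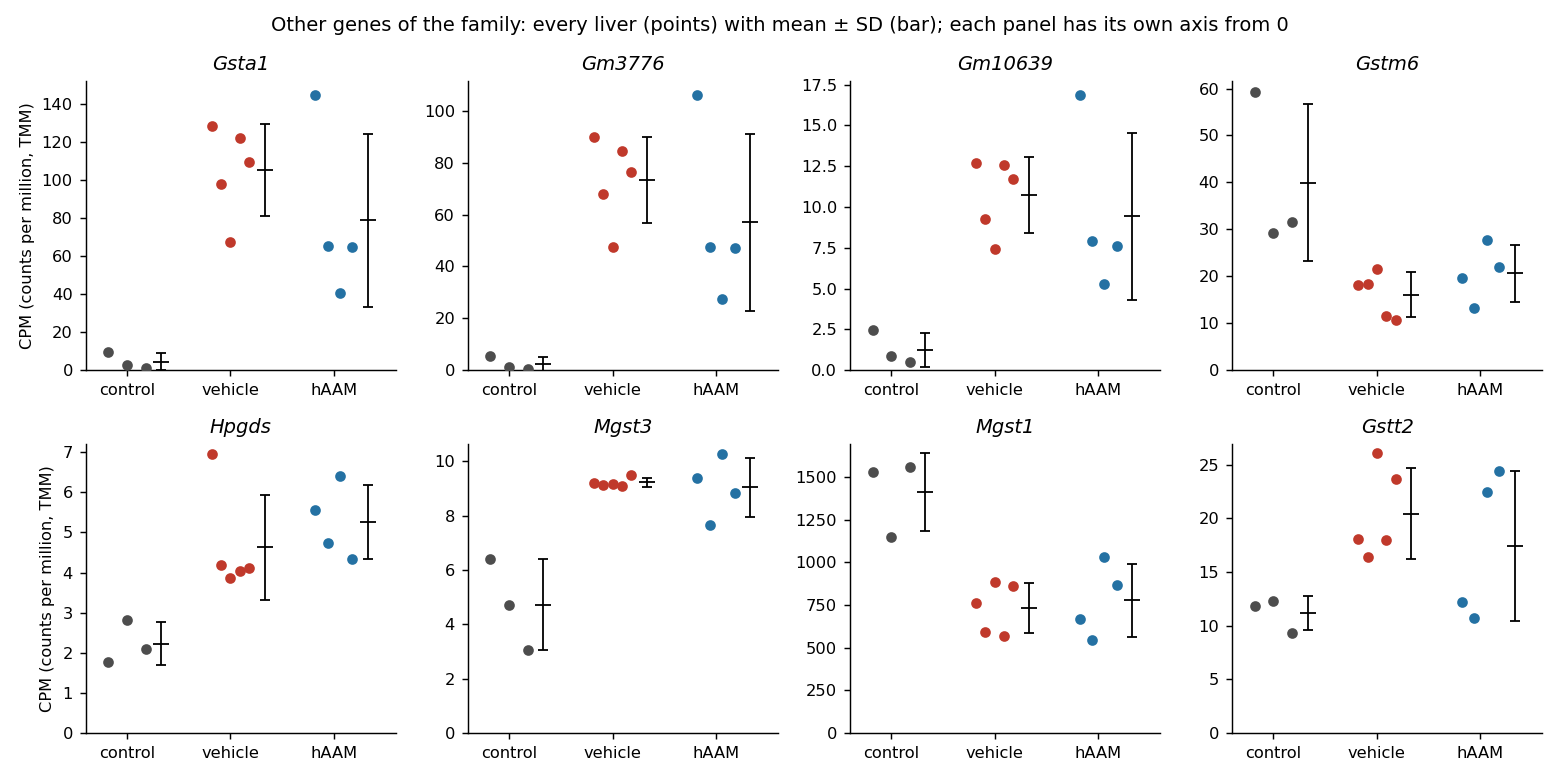
CPM (linear axis from 0, its own in each panel) in each liver of the 8 other family genes with the largest called change in vehicle livers, as points with the mean and SD of each group: control (n = 3), vehicle (n = 5) and hAAM (n = 4). Gsta1, Gm3776 and Gm10639 are higher in every APAP liver than in every control liver, and Gstm6 and Mgst1 are lower.

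The supply of glutathione was followed with 16 genes of its synthesis, recycling and use, all tested. In vehicle livers 2 rose and 4 fell, beside 15.0% and 14.8% of all genes. In hAAM livers 1 rose and 3 fell, beside 10.7% and 9.96% of all genes, so the number that rose was near or below the share over all genes in both. Slc7a11, the cystine transporter that feeds glutathione synthesis, rose by a log2 fold change of 3.19 ± 0.72 (SE, 95% interval 1.62 to 4.76, FDR = 0.00695), from 1.201, 0.362 and 0.454 CPM to 3.84, 3.03, 2.25, 14.1 and 7.20 CPM in vehicle livers. With 1 liver left out in turn the vehicle value of Slc7a11 ran from 2.61 to 3.91. Gpx1, the glutathione peroxidase, changed by -1.45 ± 0.21 (SE, 95% interval -1.91 to -0.99, FDR = 0.00077) and was below the controls in every APAP liver. Glo1, the glyoxalase that uses glutathione to clear methylglyoxal, changed by -0.83 ± 0.16 (SE, 95% interval -1.17 to -0.48, FDR = 0.00297), and Glrx, glutaredoxin, by 0.79 ± 0.17 (SE, 95% interval 0.42 to 1.16, FDR = 0.00555). In hAAM livers Slc7a11, Gpx1 and Glo1 were called as well, at 2.58, -1 and -0.64, and Glrx was not (0.43, FDR = 0.102). Of the 12 fits that left out 1 liver, 8 kept the hAAM call of Slc7a11, 8 that of Glo1 and 12 that of Gpx1.

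The mercapturate route, which processes the conjugates that these transferases make, was represented by 16 genes, of which 15 were tested. In vehicle livers 1 rose and 7 fell, where 15.0% of all genes rose and 14.8% fell. In hAAM livers 1 rose and 5 fell, where 10.7% rose and 9.96% fell. A single gene of 15 is below the share of all genes that rose. Nat8f5, Nat8f1 and Nat8f2, of the N-acetyltransferase family that includes the enzyme of the last step, changed by -2.37 ± 0.27, -1.46 ± 0.27 and -1.201 ± 0.15 on the log2 scale in vehicle livers (SE, edgeR FDR = 0.000182, 0.00245 and 0.000362). Abcc4, an exporter of conjugates in the basolateral membrane, rose by 1.18 ± 0.18 (SE, 95% interval 0.78 to 1.58, FDR = 0.00107).

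Of 15 genes listed as targets of Nrf2 outside the family, 7 rose and 3 fell in vehicle livers, against 15.0% and 14.8% of all genes. In hAAM livers 6 rose and 2 fell, against 10.7% and 9.96%. The number that fell was near the share over all genes in both. Cbr3, a carbonyl reductase, rose by 2.36 ± 0.25 (SE, 95% interval 1.81 to 2.92, FDR = 0.000128), Srxn1, sulfiredoxin, by 1.86 ± 0.25 (SE, 95% interval 1.32 to 2.40, FDR = 0.000447) and Nqo1, a quinone reductase, by 1.42 ± 0.23 (SE, 95% interval 0.92 to 1.92, FDR = 0.00131). Me1, malic enzyme, fell with a log2 fold change of -1.57 ± 0.24 (SE, 95% interval -2.10 to -1.05, FDR = 0.000999). In hAAM livers the changes of Cbr3, Srxn1, Nqo1 and Me1 were 1.97, 1.26, 1.11 and -1.48, all 4 called. In the comparison of hAAM with vehicle livers 0 genes of these 3 lists were called by edgeR. Its unadjusted p was under 0.05 for 2 of the 16 glutathione supply genes and 2 of the 15 tested mercapturate genes. It was also under 0.05 for 3 of the 15 Nrf2 targets, beside 1133 of all 22581 genes. Of Gclc and Gclm, the subunits of the enzyme that limits glutathione synthesis, neither was called in vehicle livers, at log2 fold changes of -0.12 (FDR = 0.669) and -0.15 (FDR = 0.309).

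Markers of liver zones and cell types were also read in the 12 livers. Of 13 pericentral hepatocyte markers, 11 were lower in vehicle livers and 9 in hAAM livers, and 0 were higher in either, where 14.8% and 9.96% of all genes were lower. Their summed level was 4530 to 7063 CPM in control, 442 to 1760 CPM in vehicle and 575 to 3252 CPM in hAAM livers. The highest APAP value was in hAAM replicate 3. Between hAAM and vehicle livers edgeR called 0 of the 13, and 4 had an unadjusted p under 0.05. In 1 of the 13 every hAAM liver was above every vehicle liver, beside 0.709% of all genes. Glul, a marker of the cells around the central vein, changed by -4.28 ± 0.24 (SE, 95% interval -4.80 to -3.74, FDR = 2.48e-06) in vehicle livers. Of 10 general hepatocyte markers 2 were lower and 1 higher in vehicle livers, and of 10 periportal markers 1 was lower and 1 higher, both near the shares of all genes (14.8% lower and 15.0% higher). The summed level of 11 macrophage markers was 310 to 383 CPM in control, 406 to 668 CPM in vehicle and 401 to 637 CPM in hAAM livers. For 8 stellate-cell markers it was 264 to 408 CPM in control, 458 to 900 CPM in vehicle and 441 to 1092 CPM in hAAM livers, so for both sums every APAP liver was above every control liver. Of the single genes, 5 of the 11 macrophage markers and 4 of the 8 stellate-cell markers rose in vehicle livers, and the same numbers in hAAM livers, beside 15.0% and 10.7% of all genes. Marco, a scavenger receptor of resident macrophages, was among those that rose, at log2 fold changes of 1.68 (FDR = 0.000329) in vehicle and 1.48 (FDR = 0.00145) in hAAM livers. The Kupffer-cell markers Clec4f and Timd4 were not called in vehicle livers, at log2 fold changes of -0.48 (FDR = 0.126) and -0.07 (FDR = 0.804), nor were the stellate-cell markers Lrat and Reln, at 0.10 (FDR = 0.81) and -0.30 (FDR = 0.152). For 6 endothelial markers it was 295 to 323 CPM in control, 337 to 439 CPM in vehicle and 313 to 430 CPM in hAAM livers. For 6 cholangiocyte markers it was 40.4 to 65.8 CPM in control, 64.6 to 301 CPM in vehicle and 63.98 to 231 CPM in hAAM livers, with the highest value in vehicle replicate 4. For 7 neutrophil markers it was 7.15 to 29.3 CPM in control, 11.5 to 46.7 CPM in vehicle and 12.5 to 42.3 CPM in hAAM livers, with overlap. That of 6 T-cell and NK-cell markers was 2.33 to 3.38 CPM in control, 1.18 to 2.36 CPM in vehicle and 1.48 to 3.41 CPM in hAAM livers. In vehicle replicate 5 the summed level of 7 B-cell markers was 90.1 CPM, against 4.86 to 12.6 CPM in the other 11 livers. That of 5 red-cell genes in the same liver was 2025 CPM, against 135 to 733 CPM in the others. Vehicle replicates 1 to 4 were at 437, 276, 220 and 519 CPM for these genes, and control livers at 135 to 240 CPM. Within that list the 4 haemoglobin genes Hba-a1, Hba-a2, Hbb-bs and Hbb-bt rose in vehicle livers, by log2 fold changes of 2.46 to 2.56 (FDR = 0.0302 to 0.0316), while the other gene, Alas2, fell (-1.67, FDR = 0.000236). In hAAM livers the haemoglobin genes were at 2.21 to 2.24 and were not called by edgeR (FDR = 0.0618 to 0.0699). DESeq2 called all 4 there (FDR = 0.025 to 0.0315). The part of these in the levels of the transferases was not tested.

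The genes most like Gstm2 over the 12 livers were sought among 11162 genes whose log2 CPM averaged 2 or more, by the root mean square difference in log2 CPM relative to the control mean. C6, a complement component, was closest at 0.224, followed by Atg16l2, an autophagy-related gene, and Alas2, the erythroid enzyme of haem synthesis and the gene of the red-cell list that fell, at 0.234 each. In vehicle replicates 4 and 5, Gstm2 was 2.08 and 2.17 log2 units below the control mean, C6 was 2.28 and 2.09 below, Atg16l2 1.83 and 1.59 below and Alas2 2.23 and 1.59 below. In hAAM replicate 3, the liver with the smallest fall, the difference was -1 for Gstm2, -0.97 for C6, -1.34 for Atg16l2 and -0.82 for Alas2. The 3 genes were selected for this likeness, and their profiles are a description.

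**Figure D5:**
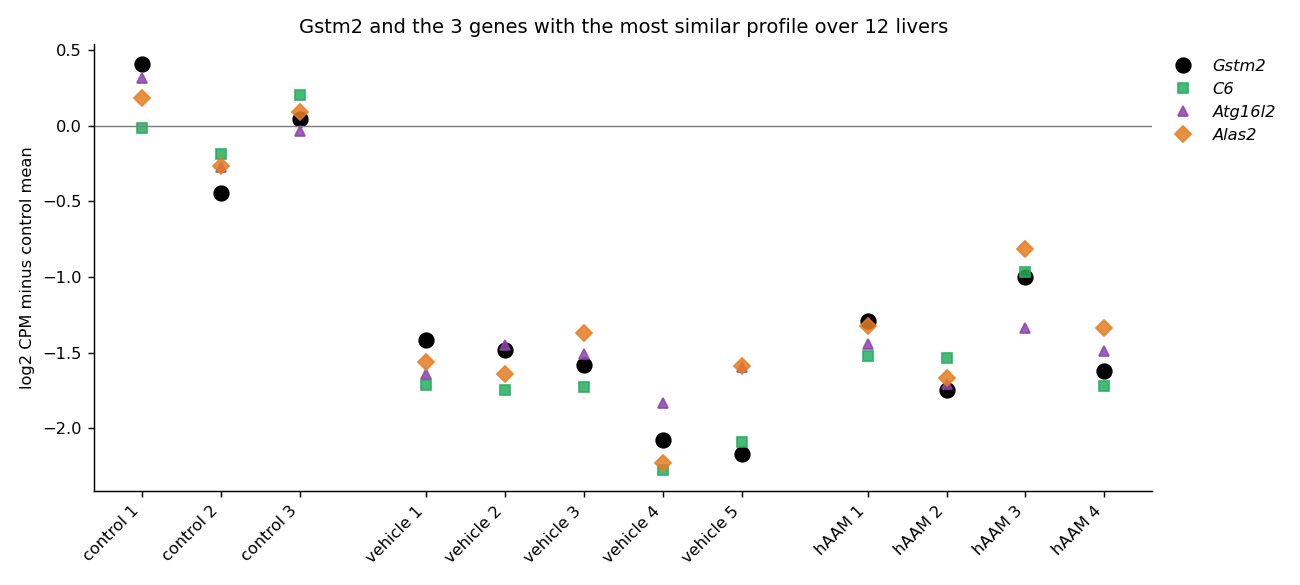
Log2 CPM minus the control mean (vertical axis) of Gstm2, C6, Atg16l2 and Alas2 in each of the 12 livers. The 4 genes lie between -0.45 and 0.41 in control livers and between -2.28 and -0.82 in APAP livers, with vehicle replicate 4 among the lowest and hAAM replicate 3 the highest for each.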

How the data were processed

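Per the labels and the study's methods, total RNA of whole liver was depleted of ribosomal RNA and made into strand-specific libraries. The authors trimmed reads with cutadapt 4.6, aligned them with STAR 2.7.1a to GRCm38 and deposited raw counts per gene for 12 livers, with genes under a total of 15 counts absent. Gene names were matched for 24128 of 24187 identifiers in GENCODE vM21. The counts were filtered (filterByExpr, 22581 genes left), scaled by TMM and tested with edgeR 4.0.16 in R 4.3.3 (quasi-likelihood F test, two-sided, all 12 livers in 1 fit, Benjamini-Hochberg). DESeq2 1.42.0, the tool of the authors at version 1.38.3, was run as an alternative, beside other scalings, filters, a replicate block and fits leaving out livers. Counts of 253 or more lie behind each member value, and each library is 1 mouse by the labels. The members and gene lists were chosen with earlier results of these data known. Named beyond the members were up to 8 other family genes and up to 4 genes of each pathway list, those called with the largest change in vehicle livers, and the 3 genes most like the member with the largest fall. Gclc, Gclm, Glul, Clec4f, Timd4, Marco, Lrat, Reln and the haemoglobin genes, and the called Gstm5, Gstm7, Gstcd and Gstp2, were named after their values were seen.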

Additional observations from a re-analysis of the deposited data

Results flagged for a closer look

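In groups of 4 or 5 livers, 60 sets of CPM values of the named genes were searched for 1 liver far from the rest of its group, by the gap to the nearest liver over the range of the group. Chance alone gives about 1 such set in 20, and 5 of the 60 were found. Among the transferases themselves, Gstt1 in vehicle replicate 3 was at 76.7 CPM, with the other vehicle livers at 44.4 to 53.5 CPM. That library is the one that nearly equals hAAM replicate 4, where Gstt1 was at 78.2 CPM. Without vehicle replicate 3 the fall of Gstt1 in vehicle livers was a log2 fold change of -0.86 (FDR = 0.00359). Hpgds in vehicle replicate 1 was at 6.95 CPM, with the others at 3.85 to 4.20 CPM. Mgst3 in vehicle replicate 5 was at 9.50 CPM, with the others at 9.09 to 9.21 CPM, a narrow range in which a small gap counts. Abcc4 in vehicle replicate 3 was at 8.48 CPM, with the others at 10.5 to 11.03 CPM. Nat8f2 in hAAM replicate 2, the lowest hAAM liver for all 10 transferases, was at 485 CPM, with the others at 629 to 635 CPM.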

How the results depend on the processing

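Fits under 22 alternatives were run for 70 gene results, and of 1540 values 1447 kept their direction and their side of the threshold, 56 lost a call, 13 gained one and 24 changed sign. Of the 4 members lower in vehicle livers, 2 remained with library size alone (Gsta3 and Gstm2), 2 with a replicate block (Gstm2 and Gstk1) and 1 at an FDR of 0.01 (Gstm2). When 1 liver was left out, 2 to 5 of the 10 members were called lower, Gstm3 or Gstp1 being added in 3 of the fits. For hAAM livers, with 1 member lower, DESeq2 and the replicate block gave 2 each, and leaving out 1 liver gave 1 to 2. Fits that left out 1 liver called 2407 to 3564 of all genes lower in vehicle livers and 1307 to 2551 in hAAM livers. No setting called a member higher, or any member between hAAM and vehicle livers. With library size alone the log2 fold change was 0.25 for Gstm4 in vehicle livers, and 0.26 for Gsta4, 0.091 for Gstm1, 0.27 for Gstm4 and 0.017 for Gstz1 in hAAM livers, against negative values with TMM. That scaling called 8637 genes higher and 1110 lower in vehicle livers, against 3380 and 3339, and 6559 higher and 781 lower in hAAM livers, against 2418 and 2248. With the replicate block it was 0.056 for Gstm4 in vehicle livers, and 0.05 for Gsta4, 0.026 for Gstm1 and 0.085 for Gstm4 in hAAM livers. The cause was not tested. Same-numbered livers correlated from -0.458 to 0.385 in their deviations from the group means. Differently numbered livers were not compared, so whether the numbers pair the livers was not settled. The block called 4253 genes in vehicle livers against 6719.

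With 1 liver left out in turn, the vehicle values ran from -0.63 to 0.063 for Gsta4, from -0.69 to 0.23 for Gstm1 and from -0.36 to 0.32 for Gstm4. In hAAM livers they ran from -0.30 to 0.39, from -0.44 to 0.48 and from -0.30 to 0.38 for the same genes. Between hAAM and vehicle livers they ran from -0.05 to 0.15 for Gstm4 and from 0 to 0.24 for Gstz1. Each of the 3 genes was positive against control without control replicate 1, in both APAP groups. Gstk1 in hAAM livers was called without hAAM replicate 3 (-0.69, FDR = 0.013), and Gstp1 without control replicate 2, vehicle replicate 5 or hAAM replicate 1. The limits are 3 control livers, of which 1 sets much of the spread, counts of Gstp1, Gstm1 and Gstm3 that can be shared with near copies, and 2 near-identical libraries in different groups.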
